A study of Mus musculus with 11 samples.

Results

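Collagens are the main structural proteins of the skin's extracellular matrix, and 40 collagen genes were followed here in mouse keratoacanthoma and normal skin. They are all the genes whose annotated single symbol is Col, a number, the letter a and a number, out of 20352 measured genes. By class, 11 encode fibrillar collagens, 9 basement membrane collagens and 20 the remaining kinds. The level of a gene is the median log2 value over its probesets, the short stretches of sequence that the array reads separately, and the 40 genes had 1861 of them (3 to 114 per gene, median 48). Collagen symbols without a singly named probeset in this annotation, such as Col21a1, are not analysed here. The array also measured Col6a4, Col6a5, Col6a6 and Col26a1, but under older symbols that the rule does not take in, so they are not among the 40.

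A collagen molecule is built of alpha chains that wind into a helix in the endoplasmic reticulum, where prolines and lysines are hydroxylated. Fibrillar procollagens are then secreted, trimmed at their ends, assembled into fibrils and crosslinked by lysyl oxidases. In the dermis fibroblasts make most of the fibrillar collagen. Fibril-associated collagens decorate the fibrils, basement membrane collagens form sheets and anchors under the epidermis and around vessels, nerves, fat and muscle, and keratinocytes make some of the anchoring collagens themselves.

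The 5 keratoacanthomas, squamous tumours of keratinocytes, all came from double transgenic mice carrying K14-Cre and Zmiz1. Of the 6 normal skins, 2 came from double transgenic mice (skins 1 and 2), 2 from K14-Cre mice (skins 3 and 4) and 2 from Zmiz1 mice without K14-Cre (skins 5 and 6). K14-Cre expresses Cre recombinase from the keratin 14 promoter, which is active in basal keratinocytes and not in fibroblasts, and Zmiz1 encodes a co-activator of transcription. Every piece thus came from a mouse with at least 1 transgene. Strain, age and sex were not given in the sources used here, nor whether pieces came from separate animals, so p-values measure the spread between these 11 arrays.

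Array medians lay between 6.22 and 6.27 on the log2 scale, and the 25th percentile between 4.88 and 4.95. The basal keratinocyte markers averaged 8.91 to 9.01 in keratoacanthomas and 8.50 to 9.05 in normal skins, and Zmiz1 was at 8.15 ± 0.11 in keratoacanthoma and 7.50 ± 0.30 in normal skin (SD, n = 5 and 6). The pieces differed in other tissue: all 12 skeletal muscle markers were lower in keratoacanthoma (array means 5.53 to 7.06, against 10.3 to 11.6 in normal skin), as were 8 of 10 adipocyte markers. By the same test, given below, 10.8% of all genes were lower. Hair follicle genes averaged 8.53 in keratoacanthoma 4, 9.48 in skin 1 and 9.17 in skin 3, and 5.71 to 6.15 on the other arrays. Xist, the RNA of the inactive X chromosome, was at 9.95 and 9.57 in skins 5 and 6 and at 4.29 to 4.73 in skins 1 to 4, with the Y-linked Eif2s3y, Kdm5d and Uty the other way round. In the tumours Xist was at 9.49 to 9.95 in 1, 3 and 4 and at 4.51 and 4.24 in 2 and 5. In normal skin, therefore, Zmiz1-only genotype and high Xist cannot be told apart.

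Collagen XII stood apart from the family. Col12a1 was raised 7.30-fold in keratoacanthoma, while 8 collagens were lower and 31 did not pass the test (limma, Benjamini-Hochberg adjusted p below 0.05 over all genes). Over all genes 14.5% were higher and 10.8% lower by the same rule, so the collagens held a smaller share of rises and a somewhat larger share of falls. Their median log2 difference was -0.11, against -0.04 over all genes. Of the 11 fibrillar collagens 0 were higher and 1 was lower (median -0.09). Of the 9 basement membrane collagens 0 were higher and 3 lower (-0.16), and of the other 20, 1 was higher and 4 lower (-0.08). The lower count moved with single arrays, as did the count over all genes, which was 2200 with every array. It was 4 without keratoacanthoma 2 (1670 of all genes lower), 5 without 3 (1766), 3 without 4 (1965) and 2 without 5 (1612). It was 5 without skin 2 (1974), 4 without skin 3 (2070) and 3 without skin 4 (1889), but 10 without skin 5 (2061). The higher count became 2 without keratoacanthoma 4 and 2 without skin 2, when Col8a1 joined Col12a1.

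**Figure D1:**
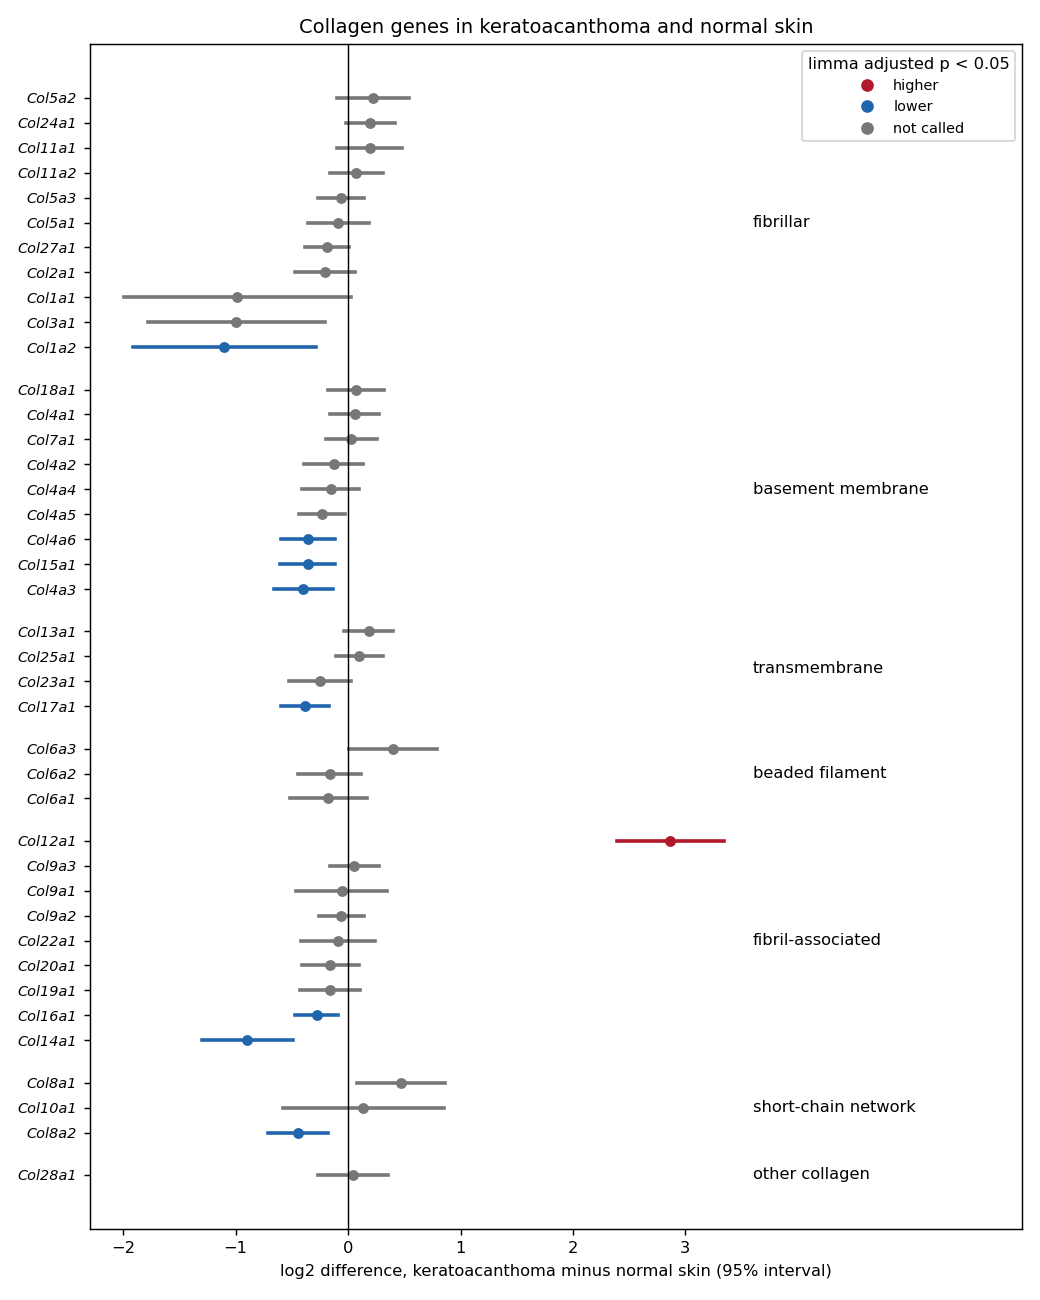
Log2 difference of each of the 40 collagens, keratoacanthoma minus normal skin, as a point with its 95% interval, grouped by class and coloured by the limma call at an adjusted p of 0.05. Col12a1 lies at 2.87, far to the right of the other 39, and the 3 chains of collagens I and III have the lowest values and wide intervals.

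Among the fibrillar collagens the chains of collagens I and III, the bulk of dermal fibrils, had the lowest differences, but only Col1a2 was called. Col1a2, the alpha 2 chain of collagen I, was at 8.02, 8.16, 8.51, 8.25 and 8.51 in the keratoacanthomas. In normal skin it was at 9.25 and 10.32 in the double transgenic, 9.84 and 10.42 in the K14-Cre and 8.23 and 8.29 in the Zmiz1-only skins. The tumours thus lay together with the Zmiz1-only skins and below the other 4. It differed by -1.10 on the log2 scale (SE 0.38), just past limma's threshold at an adjusted p of 0.0478, and 11 of 25 alternative settings called it. In tissue pieces, fewer fibroblasts and less collagen RNA per fibroblast cannot be told apart.

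Col1a1, the alpha 1 chain of collagen I, was at 8.47, 8.35, 8.73, 8.37 and 8.42 in the keratoacanthomas. In normal skin it was at 9.54 and 10.64 in the double transgenic, 10.06 and 10.57 in the K14-Cre and 7.90 and 8.02 in the Zmiz1-only skins. The tumours lay in a narrow range above the Zmiz1-only skins and below the other 4, and over all 6 skins the difference of -0.99 (SE 0.47) had an adjusted p of 0.145. Col3a1, the chain of collagen III, which is thin and pliant and shares fibrils with collagen I, was at 7.98, 8.33, 8.55, 8.12 and 7.89 in the keratoacanthomas. It was at 9.11 and 10.17 in the double transgenic, 9.55 and 10.03 in the K14-Cre and 8.24 and 7.92 in the Zmiz1-only skins. Its difference was -0.99 (SE 0.37, adjusted p = 0.0644), and the tumours again lay with the Zmiz1-only skins.

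The differences of these chains depended on the normal skin used, as fits chosen after the values were seen showed. Against the 4 skins with K14-Cre, keratoacanthoma was lower by limma for Col1a1 (-1.73, adjusted p = 0.000341), Col1a2 (-1.67, 0.000616) and Col3a1 (-1.54, 0.000795). In that comparison 1 collagen was higher and 8 were lower, with 14.2% and 9.58% of all genes. Against the 2 Zmiz1-only skins, Col1a1 was higher in keratoacanthoma (0.51, adjusted p = 0.0310), and Col1a2 (0.03, 0.934) and Col3a1 (0.10, 0.794) had no detectable difference. There 3 collagens were higher (Col12a1, Col1a1 and Col6a3) and 0 lower, with 10.2% and 8.76% of all genes.

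Between the normal skins themselves, Zmiz1-only minus K14-Cre-carrying skin gave -2.24 for Col1a1 (SE 0.26, limma adjusted p = 0.0395). That was the gene of rank 2 by p among all genes, and 2 genes (0.00983%) passed. Col1a2 (-1.70, adjusted p = 0.0872) and Col3a1 (-1.64, 0.0963) missed the threshold, and an F test over the 3 normal genotypes gave 0.0719 for Col1a1. This contrast too was chosen after its values were seen, with 2 skins against 4. Of the 40 collagens, 37 (92.5%) had a value below 0 in it, against 53.8% of all genes, with medians of -0.20 and -0.03. The small fibroblast proteoglycans Dcn and Lum were picked after their values were seen. Dcn averaged 11.2 in Zmiz1-only and 10.6 in K14-Cre-carrying skin, and Lum averaged 8.89 in Zmiz1-only and 8.75 in K14-Cre-carrying skin. Pcolce, which enhances removal of the procollagen C-propeptide, averaged 7.97 in Zmiz1-only and 8.98 in K14-Cre-carrying skin (limma adjusted p = 0.223). Adipocyte markers averaged 8.63 and 8.71 in the Zmiz1-only skins and 7.61 to 7.99 in the K14-Cre-carrying ones. Fibroblast markers averaged 8.16 and 8.10 against 7.52 to 8.01, and activated fibroblast markers 7.08 and 7.07 against 6.95 to 7.51. In both fibroblast lists some genes were higher and some lower in the Zmiz1-only skins. Xist separated the same skins, as given above, and the part of these in the difference was not tested. Among the tumours Col1a1 was at 8.47, 8.73 and 8.37 where Xist was high and at 8.35 and 8.42 where it was low.

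**Figure D2:**
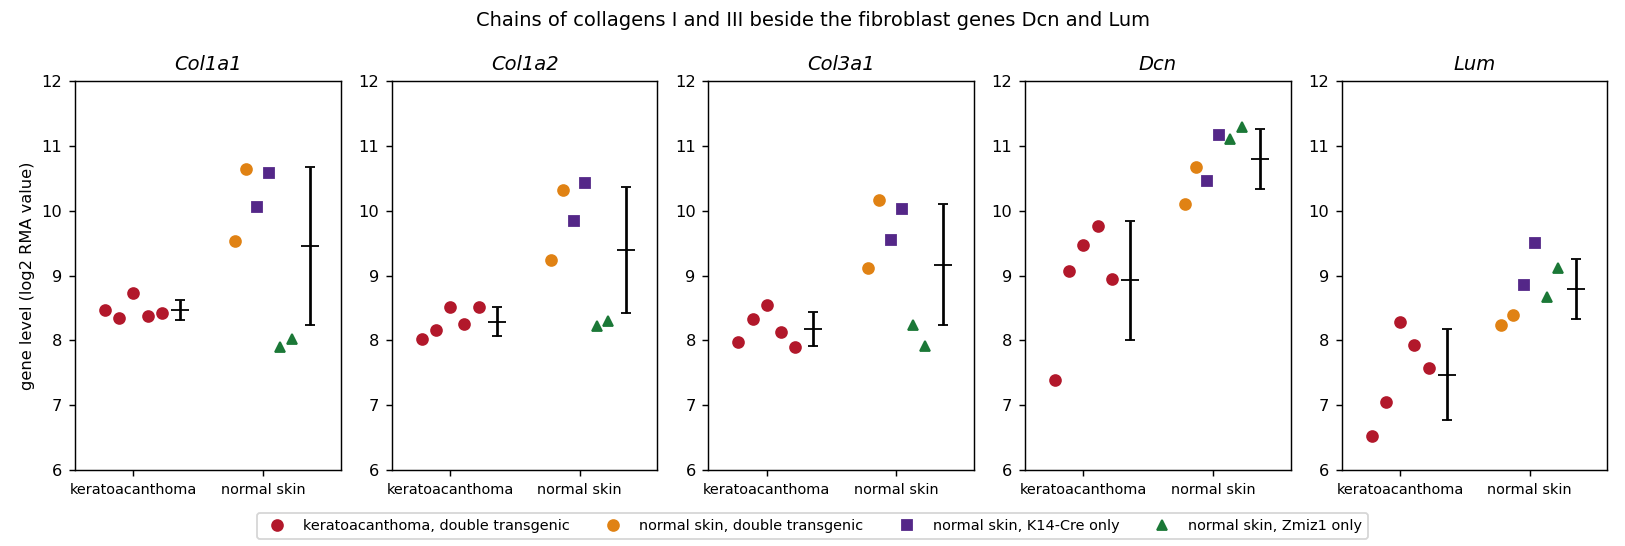
Gene level (log2) of Col1a1, Col1a2, Col3a1, Dcn and Lum on each array, keratoacanthoma left of normal skin, with symbols for genotype and bars for mean and SD (n = 5 and 6). The Zmiz1-only skins (triangles) sit at 7.90 and 8.02 for Col1a1, below the other 4 skins, while for Dcn they are at 11.1 and 11.3, among the highest.

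To show the regulatory sequence of the chains that moved together, the 250 bases upstream of the start site are printed for Col1a2 and Col3a1 as RefSeq gives them on GRCm38.p6, in the direction of transcription. Beside them stands Col17a1, a keratinocyte collagen described further on. Capitals mark matches on either strand to TATAAA (core of the TATA box), CCAAT (the box bound by NF-Y), GGGCGG (core of an Sp1 site) or TGANTCA (core of an AP-1 site); none of them overlapped another kind.
Col1a2, chr6:4505368-4505617, plus strand: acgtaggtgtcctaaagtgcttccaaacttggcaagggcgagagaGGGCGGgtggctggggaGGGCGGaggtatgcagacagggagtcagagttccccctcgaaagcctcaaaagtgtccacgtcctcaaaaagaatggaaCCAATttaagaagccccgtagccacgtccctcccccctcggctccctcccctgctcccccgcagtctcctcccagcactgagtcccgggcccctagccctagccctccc
Col3a1, chr1:45311288-45311537, plus strand: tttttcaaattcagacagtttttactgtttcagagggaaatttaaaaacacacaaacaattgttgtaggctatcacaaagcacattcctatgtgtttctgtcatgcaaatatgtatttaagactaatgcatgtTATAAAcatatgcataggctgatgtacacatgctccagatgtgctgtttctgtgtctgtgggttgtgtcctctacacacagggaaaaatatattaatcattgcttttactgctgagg
Col17a1, chr19:47692043-47692292, minus strand: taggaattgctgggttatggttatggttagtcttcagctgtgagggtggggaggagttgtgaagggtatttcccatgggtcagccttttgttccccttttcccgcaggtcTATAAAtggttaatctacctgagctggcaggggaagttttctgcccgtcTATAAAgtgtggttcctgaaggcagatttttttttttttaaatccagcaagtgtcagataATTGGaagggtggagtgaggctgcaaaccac
The Col1a2 window held CCAAT at -109 and GGGCGG at -205 and -188 from the start site. The Col3a1 window held TATAAA at -117. The Col17a1 window held TATAAA at -140 and -91 and CCAAT on the opposite strand at -31. Windows were found for 32 of the 40 collagens, 35 in all. TATAAA lay in 14.3% of them (12.4% of 32851 promoters of all genes), CCAAT in 34.3% (33.8%), GGGCGG in 54.3% (32.7%) and TGANTCA in 2.86% (6.75%). These are letter matches, not binding data. Start sites of Col4a1 and Col4a2 lie 21 bases apart on opposite strands, a shared promoter that is known for the paired collagen IV genes.

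The other fibrillar collagens lay between -0.21 and 0.22 and were not called. Collagen V, which sets fibril diameter, had 0.22 for Col5a2 (SE 0.15), -0.09 for Col5a1 and -0.06 for Col5a3. The cartilage collagens gave -0.21 for Col2a1, 0.19 for Col11a1 and 0.07 for Col11a2. Col24a1 had 0.20 and Col27a1 had -0.19.

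**Figure D3:**
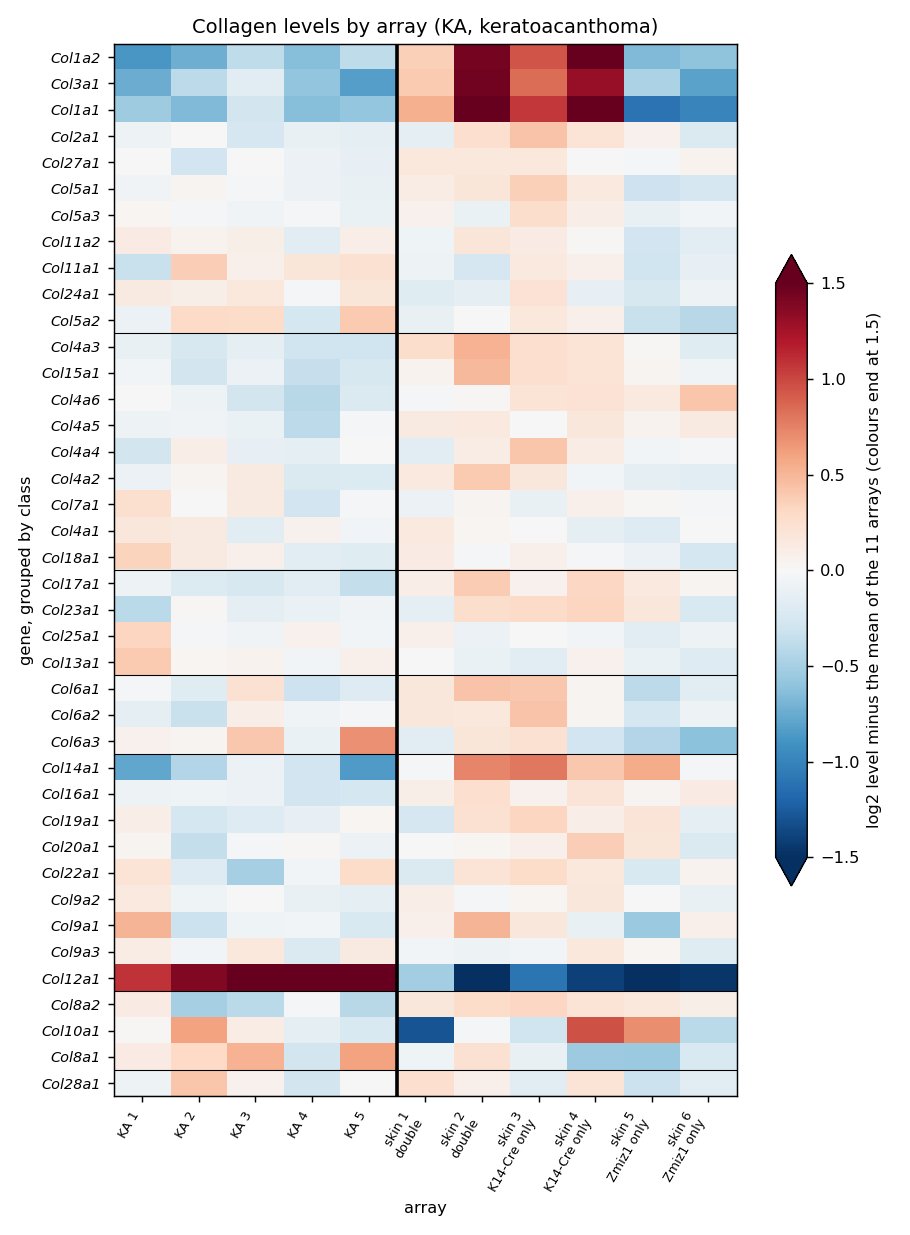
Level of each collagen on each array minus its mean over the 11 arrays (log2, colours end at 1.5), with keratoacanthomas left of the thick line, normal skins right of it, and classes between thin lines. Col12a1 is high in all 5 tumours, and the rows of Col1a1, Col1a2 and Col3a1 are high in skins 1 to 4 but not in skins 5 and 6.

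In the basement membrane class Col4a3, Col4a6 and Col15a1 were modestly lower, and the other 6 genes, the collagen IV chains Col4a1, Col4a2, Col4a4 and Col4a5 among them, were not called. Col4a3, a chain of the alpha 3, 4, 5 network best known from kidney and inner ear, was at 5.72, 5.60, 5.70, 5.54 and 5.53 in the keratoacanthomas. In normal skin its lowest, median and highest values were 5.65, 6.07 and 6.35, so the groups overlapped at the lowest skin. The difference was -0.40 (SE 0.12, limma adjusted p = 0.0283). Its partner Col4a4 ran from 5.81 to 6.18 in keratoacanthoma and from 5.93 to 6.51 in normal skin (-0.16, adjusted p = 0.366).

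Col4a6, found with Col4a5 in the basement membranes of epidermis and smooth muscle, was at 5.62, 5.53, 5.34, 5.19 and 5.39 in the keratoacanthomas. Normal skins had a lowest value of 5.59, a median of 5.78 and a highest of 6.02. Only keratoacanthoma 1 reached into their range, and the difference was -0.36 (SE 0.11, limma adjusted p = 0.0309). Col4a5 was at 5.84, 5.87, 5.83, 5.53 and 5.90 in the keratoacanthomas and at 5.93, 6.05 and 6.10 (lowest, median, highest) in normal skin. Its groups did not overlap, but the difference of -0.24 had an adjusted p of 0.0863.

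Col15a1, a collagen with heparan or chondroitin sulfate chains of vessel, muscle, nerve and fat basement membranes, was at 6.72, 6.48, 6.66, 6.41 and 6.51 in the keratoacanthomas. Its lowest, median and highest values in normal skin were 6.70, 6.88 and 7.24. The difference was -0.36 (SE 0.11, limma adjusted p = 0.0332), and keratoacanthoma 1 lay above the lowest skin. Muscle, fat and Schwann cell markers were lower in the same tumours, as 12 of 12, 8 of 10 and 4 of 5 members (10.8% of all genes). Their part in this was not tested.

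The calls of Col4a3, Col4a6 and Col15a1 held in 15, 13 and 13 of 25 alternative settings. By themselves 5 of 52, 4 of 46 and 3 of 40 of their probesets were lower, beside 6.98% of all probesets. The Col4a3 call was lost with the mean over probesets (-0.23, limma adjusted p = 0.0588) and without dim probesets (-0.24, 0.170). The ubiquitous collagen IV chains Col4a1 (0.06, SE 0.10) and Col4a2 (-0.13, SE 0.12) were not called in any of the 25 settings. Collagen VII, which forms the anchoring fibrils under the epidermis and is made largely by keratinocytes, had a difference of 0.03 for Col7a1 (95% interval -0.20 to 0.25). Col18a1, the source of endostatin, had 0.07 (interval -0.18 to 0.32).

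Of the 9 fibril-associated collagens 1 was higher and 2 were lower. Col12a1 encodes collagen XII, which lies along collagen I fibrils in tissues under tension and interacts with tenascins. It was at 9.20, 9.51, 10.05, 9.65 and 9.996 in the keratoacanthomas. Its lowest, median and highest values in normal skin were 6.28, 6.68 and 7.59. The lowest tumour stood well above the highest skin. The difference was 2.87 (SE 0.22, 95% interval 2.39 to 3.34, limma adjusted p = 2.03e-06), and it was called in all 25 alternatives, at 2.57 to 3.22. Groups did not overlap for 9.66% of all genes with keratoacanthoma higher, and Col12a1 was the only collagen among them. The tenascin gene Tnc was higher too (2.79, SE 0.31).

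Col14a1 encodes collagen XIV, the relative of collagen XII that is bound to fibrils in skin and tendon. It was at 6.25, 6.59, 6.94, 6.74 and 6.18 in the keratoacanthomas. Normal skins had 7.01, 7.51 and 7.83 (lowest, median, highest), without overlap. The difference was -0.90 (SE 0.19, limma adjusted p = 0.00363), a level 1.86-fold higher in normal skin, and 23 of 25 alternatives called it. The 2 without a call used only 2 skins as reference, the double transgenic (-0.85, adjusted p = 0.0609) or the Zmiz1-only pair (-0.76, 0.0593).

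Col16a1, a minor fibril-associated collagen found near the dermal-epidermal junction, was at 6.50, 6.51, 6.48, 6.28 and 6.31 in the keratoacanthomas. Normal skins had 6.60, 6.67 and 6.82, without overlap. The difference of -0.28 (SE 0.09, limma adjusted p = 0.0360) was called in 12 of 25 alternatives. Only 2 of its 73 probesets were lower by themselves, a smaller share than the 6.98% of all probesets. With keratoacanthoma lower, 6.31% of all genes had groups that did not overlap, and the 4 such collagens were Col4a5, Col14a1, Col16a1 and Col17a1. The remaining 6 genes of the class, Col9a1, Col9a2, Col9a3, Col19a1, Col20a1 and Col22a1, lay between -0.16 and 0.05 and were not called.

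**Figure D4:**
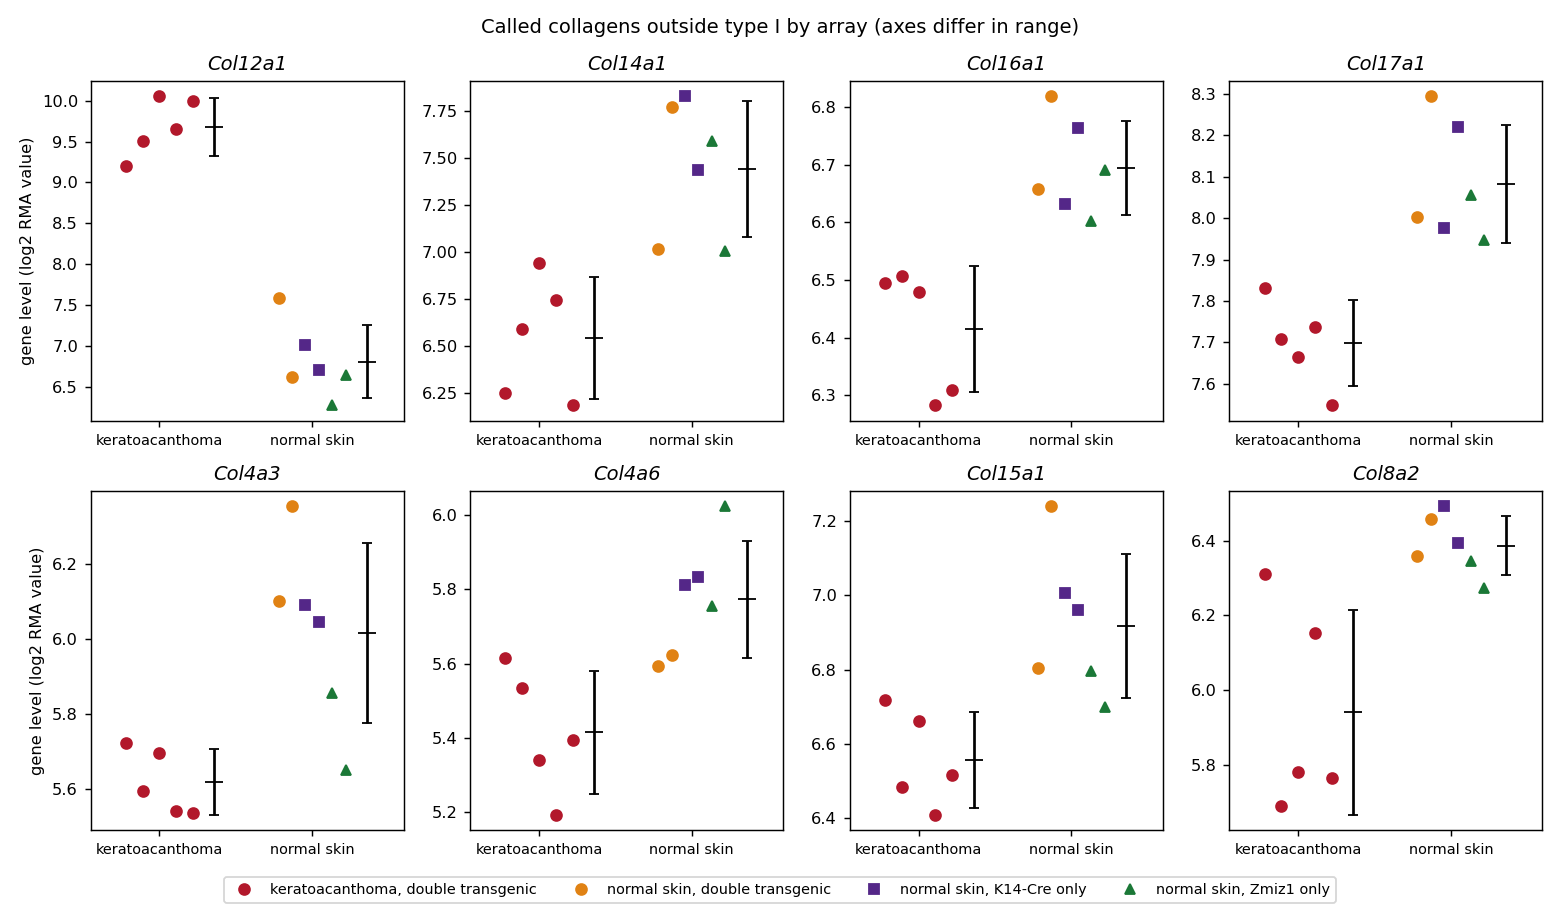
Gene level (log2, axes differing in range) of the 8 called collagens other than Col1a2 on each array, keratoacanthoma left of normal skin, with symbols for genotype and bars for mean and SD (n = 5 and 6). Only Col12a1 is higher in keratoacanthoma, and the groups do not overlap for Col12a1, Col14a1, Col16a1 and Col17a1.

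Of the transmembrane collagens, Col17a1 was lower. It encodes collagen XVII (BP180), the hemidesmosome collagen that ties basal keratinocytes to the basement membrane. It was at 7.83, 7.71, 7.67, 7.74 and 7.55 in the keratoacanthomas. Its lowest, median and highest values in normal skin were 7.95, 8.03 and 8.29, again without overlap. The difference was -0.38 (SE 0.10, limma adjusted p = 0.0120) and was called in 22 of 25 alternatives. It was however -0.09 (limma adjusted p = 0.593) with the mean over probesets in place of the median, so that its size and its call depend on the summary. Taken singly, 1 of its 54 probesets was lower, beside 6.98% of all probesets, and 19 had a difference above 0. Col13a1 (0.18), Col23a1 (-0.25) and Col25a1 (0.10) were not called.

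The short-chain collagen VIII, a network former of vessels and of the corneal Descemet membrane, had chains with opposite signs. Col8a2 was at 6.31, 5.69, 5.78, 6.15 and 5.77 in the keratoacanthomas and at 6.27, 6.38 and 6.49 (lowest, median, highest) in normal skin. Keratoacanthoma 1 alone reached the skins, and the difference was -0.45 (SE 0.12, limma adjusted p = 0.0172). It was called in 21 of 25 alternatives. Col8a1 was at 7.27, 7.45, 7.67, 6.87 and 7.75 in the keratoacanthomas and at 6.59, 6.98 and 7.37 in normal skin (0.47, SE 0.18, adjusted p = 0.0738). It passed in 6 of 25 alternatives, among them the mean over probesets (0.89, adjusted p = 0.00172). These genes had 5 and 6 probesets, few beside the median of 48.

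Of collagen VI, the beaded filament around cells, the 3 chains among the 40 genes were not called. Col6a3 differed by 0.40 (SE 0.18, limma adjusted p = 0.130), Col6a1 by -0.18 and Col6a2 by -0.17. Outside the 40, the collagen VI chain Col6a6 was lower (-0.49, SE 0.14, limma adjusted p = 0.0208), and Col6a4 (0.05) and Col6a5 (-0.20) were not called. Col10a1, the collagen of hypertrophic cartilage, differed by 0.13 (SE 0.33) and scattered widely in normal skin, from 6.14 to 8.39. Only 3 probesets named it alone, and 2 more shared with Nt5dc1 were left out. Col28a1, a collagen of peripheral nerve, differed by 0.04.

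Chains of the same molecule or fibril were set against each other within each array in 10 pairs. Levels of different genes are not comparable on an array, so the quantity is how the difference of a pair changed between groups. Col8a1 minus Col8a2 was higher by 0.92 in keratoacanthoma (SE 0.27, exact two-sided permutation p = 0.013, adjusted over the 10 pairs 0.13), with 4 of 5 tumours above all skins. Col5a1 minus Col5a2 was lower (-0.31, SE 0.12, exact p = 0.039, adjusted 0.195). None of the 10 passed after adjustment, and the other 8 had exact p-values of 0.126 and up. For Col1a1 minus Col1a2 the change was 0.12 (SE 0.15), and for Col3a1 minus Col1a1 it was -0.01 (SE 0.18).

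Single probesets showed how evenly each gene moved. Of the 68 probesets of Col12a1, 63 were higher by limma over all probesets and 1 was lower (-0.90), and in 60 every tumour lay above every skin. Of the 47 of Col14a1, 20 were lower and 1 was higher (1.18). For collagens I and III, 152 of 155 probesets had a difference below 0, and 34 were called lower. All collagen probesets together had 113 higher (6.07%, against 8.29% of all probesets) and 139 lower (7.47%, against 6.98%). Without Col12a1, 50 of 1793 were higher (2.79%). Col7a1, level as a gene, had 11 of 114 probesets higher and 6 lower.

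A few probesets stood far from their genes. One of Col11a2 averaged 8.95 ± 0.34 in keratoacanthoma and 5.61 ± 0.47 in normal skin (SD, n = 5 and 6), a difference of 3.34 in a gene at 0.07. Col28a1 held a probeset at 2.90 and another at -2.61, Col27a1 one at 2.29 and Col3a1 one at 1.32. Whether they read the collagen transcript or another one was not tested. In 18 of the 40 genes probesets were called in both directions, and in 2 none was called. The same count over all genes was not made, so these numbers have no share to stand beside. Of all probesets 8.29% were higher and 6.98% lower, and the collagens had a median of 48.

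**Figure D5:**
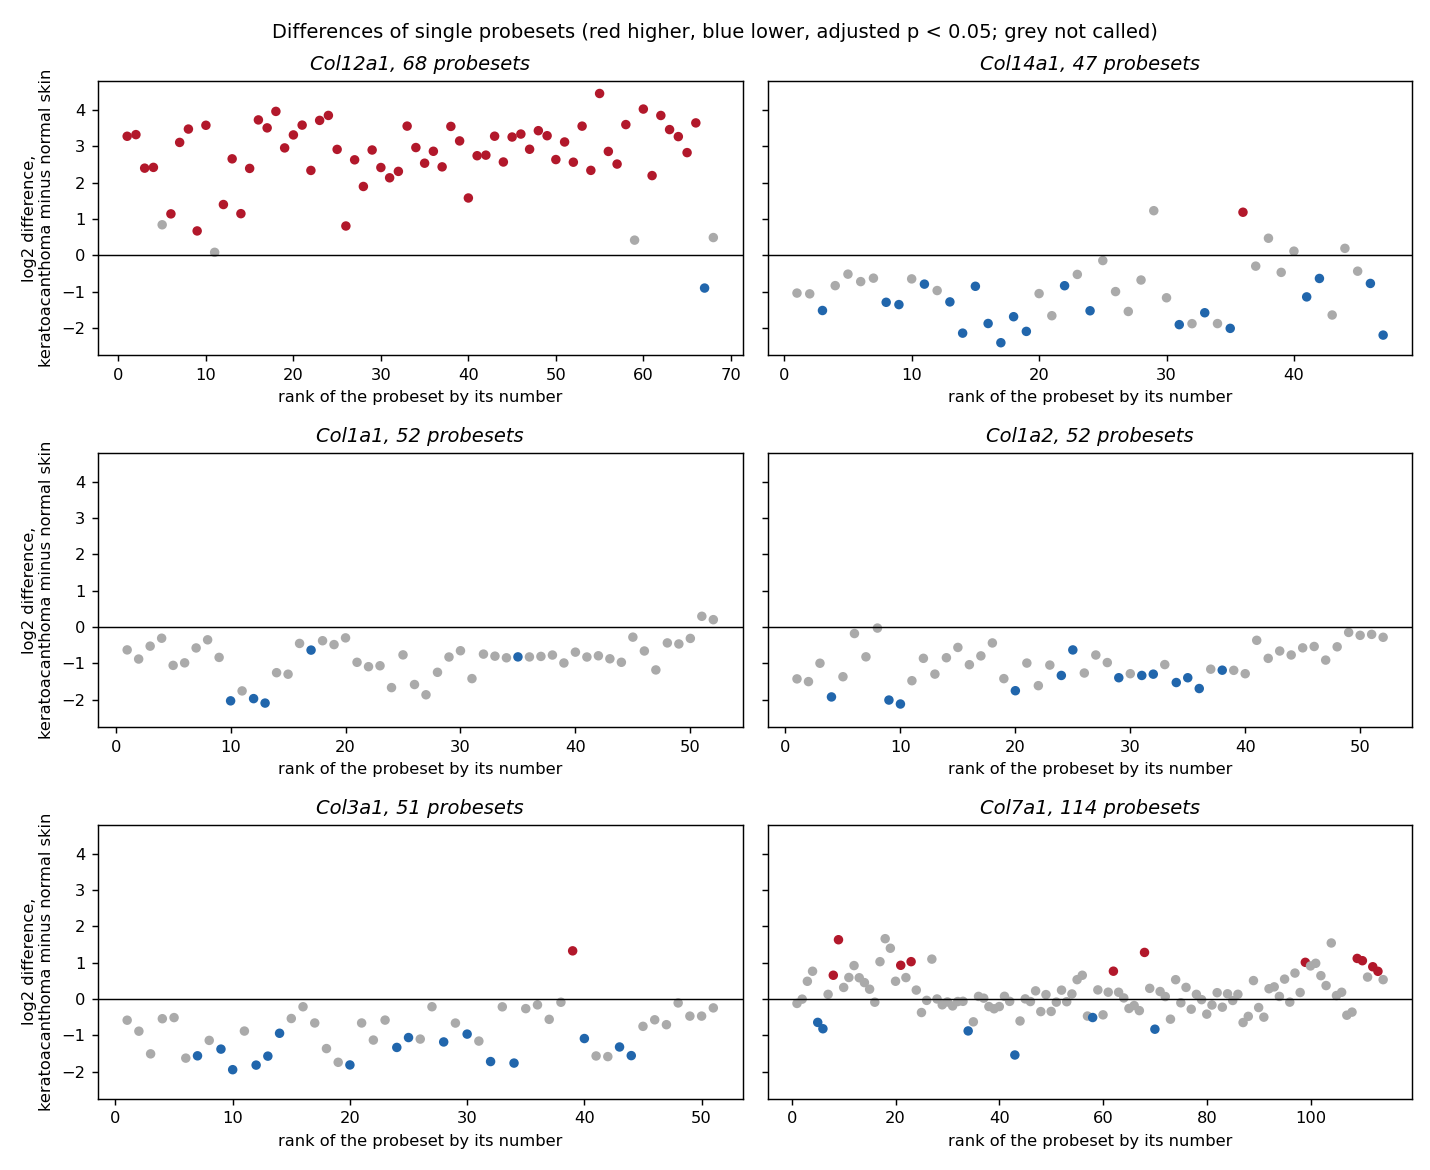
Log2 difference of every probeset (keratoacanthoma minus normal skin) of 6 collagens, in order of probeset number, coloured by the limma call at an adjusted p of 0.05. The probesets of Col12a1 lie almost all above 0, those of Col1a1, Col1a2, Col3a1 and Col14a1 mostly below it, and those of Col7a1 on both sides.

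Normal skins were also compared as double minus the mean of both kinds of single transgenic skin. The single side pools the K14-Cre skins with the Zmiz1-only skins, which Xist also set apart, so this contrast does not isolate genotype. Col1a1 averaged 10.1 in double transgenic, 10.3 in K14-Cre and 7.96 in Zmiz1-only skin. None of the 40 collagens was called by limma (3 genes of all, 0.0147%). At an unadjusted p below 0.05 there were 3 collagens, where 10.2% of all genes passed, namely Col1a1 (0.95, adjusted p = 0.345), Col3a1 (0.70, 0.451) and Col4a3 (0.32, 0.467). Keratoacanthoma against the double transgenic skins, in the model of 4 groups, called 1 collagen higher and 5 lower (10.6% and 6.93% of all genes). These were Col12a1 (2.57) on the higher side and Col1a1 (-1.62), Col1a2 (-1.49), Col3a1 (-1.46), Col4a3 (-0.61) and Col17a1 (-0.45) on the lower. This comparison shares its arrays with the one over all skins.

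Genes that fold and modify collagen in the endoplasmic reticulum were higher where called. Of 21 measured, 8 rose and 0 fell, with a median of 0.06, where 14.5% of all genes were higher and 10.8% lower. Plod2, which hydroxylates telopeptide lysines, averaged 6.38 ± 0.35 in keratoacanthoma and 5.02 ± 0.66 in normal skin (SD, n = 5 and 6), a difference of 1.37 (SE 0.28). The prolyl hydroxylase subunits P4ha3 (1.22, SE 0.29) and P4hb (1.20, SE 0.14) and the 3-hydroxylase P3h2 (0.96, SE 0.20) followed. P4hb is also protein disulfide isomerase and has clients other than collagen. Each of these passed limma's adjusted threshold.

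Procollagen trimming and crosslinking had 1 gene higher and 2 lower of 17 (median -0.10). Beside these and the receptor counts below stand 14.5% of all genes higher and 10.8% lower. Bmp1, the C-proteinase, rose by 0.55 (SE 0.10). Its enhancers fell, Pcolce2 by 2.38 (SE 0.33) and Pcolce by 1.10 (SE 0.28). Pcolce2 was at 5.21, 6.33, 6.71, 7.03 and 5.71 in the keratoacanthomas and between 7.85 and 9.19 in normal skin, without overlap. Among 11 receptors 3 rose and 0 fell (median 0.08). They were Itgb1 (0.73, SE 0.15), the beta chain of the collagen-binding integrins, Itga2 (0.61, SE 0.16), their alpha 2 chain in keratinocytes, and Adgrg1 (0.61, SE 0.17), an adhesion receptor for collagen III.

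Of 14 collagen-degrading proteases 5 rose and 2 fell (median 0.38), where 14.5% of all genes rose and 10.8% fell. The collagenase Mmp13 was at 8.42, 9.20, 8.47, 7.85 and 9.16 in the keratoacanthomas and between 5.02 and 6.16 in normal skin (3.14, SE 0.26). The stromelysin Mmp10 (2.30, SE 0.25), the gelatinase Mmp9 (1.63, SE 0.26) and Mmp1b (SE 0.22), at 5.22 ± 0.43 in keratoacanthoma and 3.72 ± 0.38 in normal skin, rose as well. Mmp1b was dim: every skin (highest 4.33) and keratoacanthomas 3 and 5 (4.78 and 4.87) lay under the arrays' 25th percentile (4.88 to 4.95). The falls were Fap (-1.60, SE 0.22), a serine protease of activated fibroblasts, and Ctsk (-0.87, SE 0.25), a collagen-cleaving cathepsin of osteoclasts and fibroblasts.

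Markers of other cell types in the pieces were counted by the same test, by which 14.5% of all genes rose and 10.8% fell. Of 12 fibroblast markers 0 rose and 6 fell, and their mean per array was 6.54 to 7.50 in keratoacanthoma and 7.52 to 8.16 in normal skin. Keratoacanthoma 1 had the lowest Dcn (7.39) and the lowest Col1a2 (8.02) of the tumours, while its Col1a1 (8.47) and Col3a1 (7.98) were not the lowest. Of 11 markers of activated fibroblasts 5 rose and 2 fell, with array means of 7.40 to 7.91 in keratoacanthoma and 6.95 to 7.51 in normal skin. Among the rest, 5 of 10 smooth muscle and pericyte markers and 2 of 9 macrophage markers fell. Of 12 endothelial markers 3 rose and 2 fell, as did 3 and 2 of 9 basal keratinocyte markers. Of 10 cartilage markers 1 fell, and of 6 bone and 15 hair follicle markers 0 were called. The part of these cells in the collagen values was not tested.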

How the data were processed

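Total RNA of 5 keratoacanthomas and 6 normal skins was amplified and hybridised to whole-transcript arrays, per the labels' protocols. The authors deposited log2 values of 241576 probesets, made with RMA (background correction, quantile normalization, probe summary) and Partek on build mm9, per the submitters' processing notes; versions were not stated. The deposited normalization was kept. The 212097 probesets that the array's annotation assigns to 1 gene were used, less 590 with values identical to another of their gene, and symbols were updated. The gene level was the median over probesets.

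Keratoacanthoma and normal skin were compared with limma 3.58.1 in R 4.3.3 (lmFit, eBayes, Benjamini-Hochberg adjusted p below 0.05) over 20352 genes, and over 211507 probesets. Genotypes were compared in a model of 4 groups, and pairs of chains by exact two-sided permutation over 462 arrangements (Python 3.11.15, scipy 1.17.1). The fits were tested on simulated data. Folds are powers of 2 of the log2 difference, and intervals are at 95%. The number of arrays limits the precision.

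Collagen genes, classes, lists, and tests were chosen with earlier results of these data known. Values of each tumour are given for called collagens and for their partner chains except Col4a4, which has a range. Among collagens each skin is given for Col1a1, Col1a2 and Col3a1, and otherwise the lowest, median and highest skin. Up to 4 called genes in each direction per other list are named. Chosen after values were seen were Tnc, Dcn, Lum, Col6a4 to Col6a6, Xist and the Y-linked genes, single probesets, and fits without the 3 arrays high in hair follicle genes, with K14-Cre-carrying or with Zmiz1-only skin as reference. The other alternatives were the mean over probesets, dim probesets or genes (below the 25th percentile) left out, 2 further scalings, a robust eBayes with a trend, weights per array, a block for the number in the title, other sets of normal skins, and each array left out. Probeset positions on mm9 were not used.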

Additional observations from a re-analysis of the deposited data

Results flagged for a closer look

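In 3 of 80 groups of arrays (40 collagens in keratoacanthoma and in normal skin), 1 array stood apart by its gap to the nearest other array, relative to the range of its group. Chance gives this in about 1 of 20 groups. Keratoacanthoma 4 had Col4a5 at 5.53, below the other tumours at 5.83 to 5.90. The same array had Col11a2 at 6.56, below the others at 6.77 to 6.84. It was also the tumour high in hair follicle genes, whose part was not tested. Keratoacanthoma 1 had Col13a1 at 6.93, above the others at 6.50 to 6.62.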

How the results depend on the processing

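Over 25 alternatives, 7 counts of higher collagens and 11 counts of lower collagens moved by over 1.5 times. The main fit called 1 collagen higher and 8 lower, and 2959 and 2200 of all 20352 genes. With the mean over probesets 3 collagens were higher and 10 lower (3667 and 3214 of all genes). Array weights gave 2 and 7 (3151 and 2402). Against the double transgenic skins there were 1 and 4 (1942 and 1244), and against the single transgenic skins 2 and 4 (2753 and 2003). Without the 3 arrays high in hair follicle genes 2 were higher and 3 lower (2646 and 2036). Against the Zmiz1-only skins 3 were higher and 0 lower (2079 and 1783). With 1 array left out the collagen counts ran from 1 to 2 higher and from 2 to 10 lower. In the same fits the count of all genes lower ran from 1612 (without keratoacanthoma 5) to 2207 (without skin 1). For collagen probesets the counts ran from 83 to 117 higher and from 73 to 183 lower. Against the Zmiz1-only skins Col1a1 turned to higher (0.51), and Col1a2 (0.029) and Col3a1 (0.10) had no detectable difference. The cause was not tested. Of the values for single named collagens, 255 stayed as they were called, 69 lost the threshold, 23 gained it and 3 changed sign.

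Differences between chains reversed where they were near 0. Without dim probesets, Col4a5 minus Col4a6 was -0.0048, Col6a1 minus Col6a2 was 0.10 and Col9a1 minus Col9a2 was -0.072. Against the single transgenic skins, Col6a1 minus Col6a2 was 0.054. Against the K14-Cre-carrying skins, Col1a1 minus Col1a2 was -0.066, Col9a1 minus Col9a2 was -0.091 and Col3a1 minus Col1a1 was 0.19. With 1 array left out, Col3a1 minus Col1a1 ran from -0.076 to 0.12, Col6a1 minus Col6a2 from -0.053 to 0.048 and Col9a1 minus Col9a2 from -0.11 to 0.11. Col8a1 minus Col8a2 was 1.19 with the mean over probesets (exact permutation p adjusted over the 10 pairs 0.0433). With the title's number as a replicate block, 1 collagen was higher and 7 were lower. Col1a1 (-1.27, limma adjusted p = 0.0425) and Col3a1 (-1.24, 0.00726) gained a call, and Col4a6, Col15a1 and Col16a1 lost it. Number 6 held skin 6 alone, so in that fit skin 6, a Zmiz1-only skin, did not bear on the difference. The fit without skin 6 gave the same -1.27 and -1.24. Same-numbered arrays correlated at -0.18 to 0.10 in their deviations, and 1 of 5 tumours (keratoacanthoma 5) correlated best with its own number. Keratoacanthomas 3, 4 and 5 also differed in genotype from the skins of the same number. Xist was at 9.66 in keratoacanthoma 1 and at 4.69 in skin 1. Neither genotype nor Xist set keratoacanthoma 2 apart from skin 2 (Xist at 4.51 and 4.73). As a set, the numbers were not taken as a pairing.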
